A study of Mus musculus with 8 samples.

Results

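The nucleolus is the nuclear body in which ribosomes are made, and 47 mouse genes encoding proteins that work there were listed as members: the RNA polymerase that transcribes ribosomal RNA, the proteins of the small nucleolar ribonucleoprotein particles (snoRNPs), the factors that assemble the small and the large ribosomal subunit, and abundant nucleolar proteins with several roles. The genes were listed by function, with earlier results of these data known. Each gene was read from array features annotated with exactly 1 symbol, averaged per symbol, and 44 of the 47 members were measured in this way among 22180 genes in all. For Fbl, Tsr1 and Mrto4 the only features carried the name of another gene as well, so no value is given for them.

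The livers of 8 wild-type adult male mice were profiled, each on 1 Affymetrix MoGene 2.0 ST array. Recombinant interleukin 1 beta of the mouse (IL1B), a cytokine that sets off inflammation, was injected into the peritoneum of the 4 IL1B mice at a dose of 0.5 µg each, and the 4 PBS mice received only the vehicle. Livers of both groups were taken after 3 h. The strain label reads C57BL/6 x CBA for the IL1B mice and C57BL/6J for the PBS mice, whereas the description of the series and the methods name C57BL/6J only, and by the labels alone the strain and the treatment cannot be told apart.

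Ribosome production starts with transcription of a long ribosomal RNA precursor by RNA polymerase I. snoRNPs modify this precursor, and large complexes of assembly factors fold and cut it while ribosomal proteins are added, until the small and large subunits leave the nucleus. The pathway is costly to the cell and is known to follow growth signals, with the transcription factor MYC, which binds the E-box CACGTG, as its best known activator.

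Every level is a log2 expression value, and every fold change is the mean of the IL1B arrays minus the mean of the PBS arrays on that scale. Between arrays, the median over all 41345 features ranged from 5.64 to 5.76. The brightest background probe set, a proxy for absence of signal, ranged from 6.65 to 7.08. The upper quartile of the features was 8.20 to 8.28 in the IL1B arrays and 8.06 to 8.10 in the PBS arrays. Hepatocyte markers had a mean of 17.65 to 17.78 in the IL1B arrays and 17.50 to 17.61 in the PBS arrays. Of these 10 markers, 6 were at the ceiling of the values in both groups, where levels cannot be compared, and 1, Hnf4a, rose, by 1.25 ± 0.15 (SE, adjusted p = 0.0009). The test was that of limma, and a gene is said to have risen, fallen or been called where its Benjamini-Hochberg p over all 22180 genes was at most 0.05. The p sets the difference between the groups against the spread between these mice, which limma draws toward that of the other genes. In RNA of a whole tissue, fewer cells of a type and less RNA per cell cannot be told apart.

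The promoters of 5 called members are shown first because they hold, or lack, the E-box read by MYC. Each is the 300-base RefSeq window (GRCm38.p6) from 250 bases before to 50 after the annotated start of the gene, given 5′ to 3′ on the strand of the gene. Capitals mark the E-box CACGTG, the GC box GGGCGG and the ETS motif CCGGAAG, searched on both strands, so that a GC box on the other strand reads CCGCCC and an ETS motif CTTCCGG. Nop58 and Heatr1 had the highest fold changes, and Nop2, Wdr43 and Mybbp1a carried an E-box.
Nop58 (chr1:59684756-59685055, plus strand): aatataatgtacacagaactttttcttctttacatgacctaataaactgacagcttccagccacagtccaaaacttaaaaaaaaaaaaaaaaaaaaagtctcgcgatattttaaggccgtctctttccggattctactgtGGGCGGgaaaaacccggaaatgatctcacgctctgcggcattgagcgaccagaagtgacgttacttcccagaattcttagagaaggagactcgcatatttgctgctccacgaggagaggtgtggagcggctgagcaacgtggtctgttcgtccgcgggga
Heatr1 (chr13:12395125-12395424, plus strand): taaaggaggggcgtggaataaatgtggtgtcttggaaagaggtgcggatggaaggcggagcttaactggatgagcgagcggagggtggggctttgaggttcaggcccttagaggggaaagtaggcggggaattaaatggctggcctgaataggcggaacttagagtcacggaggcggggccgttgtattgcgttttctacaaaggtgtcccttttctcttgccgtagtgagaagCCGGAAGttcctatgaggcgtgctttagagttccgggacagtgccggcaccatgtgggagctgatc
Nop2 (chr6:125131633-125131932, plus strand): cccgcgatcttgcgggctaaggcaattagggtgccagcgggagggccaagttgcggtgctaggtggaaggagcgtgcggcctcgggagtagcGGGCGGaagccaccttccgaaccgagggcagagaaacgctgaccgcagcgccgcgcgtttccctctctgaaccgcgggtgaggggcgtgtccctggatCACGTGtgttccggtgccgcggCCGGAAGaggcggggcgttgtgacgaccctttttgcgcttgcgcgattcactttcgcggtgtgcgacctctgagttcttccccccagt
Wdr43 (chr17:71615965-71616264, plus strand): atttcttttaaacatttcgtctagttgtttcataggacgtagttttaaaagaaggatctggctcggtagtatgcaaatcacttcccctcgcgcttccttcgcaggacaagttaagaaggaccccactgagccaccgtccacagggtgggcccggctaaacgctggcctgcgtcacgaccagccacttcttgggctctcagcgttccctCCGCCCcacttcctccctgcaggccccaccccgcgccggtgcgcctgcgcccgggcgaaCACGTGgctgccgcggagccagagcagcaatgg
Mybbp1a (chr11:72441077-72441376, plus strand): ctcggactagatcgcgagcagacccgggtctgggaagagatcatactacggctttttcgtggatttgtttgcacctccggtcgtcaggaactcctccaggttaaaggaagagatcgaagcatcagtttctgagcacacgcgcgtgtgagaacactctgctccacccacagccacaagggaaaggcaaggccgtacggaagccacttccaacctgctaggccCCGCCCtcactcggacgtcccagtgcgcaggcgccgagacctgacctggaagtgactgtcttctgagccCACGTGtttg
The Nop58 window held 1 GC box and no E-box, and the Heatr1 window held 1 ETS motif, at base -16 from the start, and neither of the other motifs. In Nop2 the E-box began at base -60, with an ETS motif at base -38. In Wdr43 it lay after the start, at base 18, and in Mybbp1a likewise, at base 41. Among called members, Utp20 and Ltv1 also held an E-box after the start, at bases 38 and 29.

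Windows were found for 42 of the 47 listed members. The E-box was present in 9 of these (21.4%), against 8.09% of all 27025 genes with a window and 11.9% of the 7915 with a window that were measured above background in a group, a gene with several windows counting once. It was present in 5 of the 21 called members with a window (23.8%) and in 3 of the 19 measured members that were not called (15.8%), namely Imp4, Pes1 and Rrn3, and also in Tsr1, which was not measured. The GC box was found in 78.6% of the members, against 38.2% of all genes and 66.0% of genes above background. It was present in 81.0% of the called members and in 78.9% of those measured and not called. The ETS motif was found in 38.1% of the members, against 9.93% of all genes and 20.4% of genes above background. For this motif the shares were 42.9% of the called members and 31.6% of those not called. These are matches of letters in fixed windows, given without a test, and a missing match does not bear on whether a factor binds.

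Transcripts of many ribosome assembly genes were higher in the IL1B livers. Of the 44 measured members, which were chosen knowing earlier results, 23 rose (52.3%) and 0 fell. By comparison, 1594 of all 22180 genes rose (7.19%) and 1179 fell (5.32%). Among the 10020 genes above background in at least 1 group, 15.1% rose. An unadjusted limma p below 0.05 was found for 31 members, all of them higher, and no alternative setting called a member lower. The members' median log2 fold change was 0.72, against -0.06 for all genes. The fitted difference was positive for all 44 members, from 0.01 to 2.50, with Polr1e, which was at background, and Nop56, whose features went apart, among them. Of the 44, 5, Rrn3, Nop56, Wdr12, Nhp2 and Ubtf, took a negative value with quantile normalization. A positive value was found for 41.9% of all genes and for 52.6% of the 10020 genes above background in a group.

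In 22 members every IL1B array lay above every PBS array, and in 0 members below. Over all genes this held for 9.81% above and 9.14% below. Of the 10020 genes above background in a group, 1968 were apart above and 1304 below. Of these 22 members, 20 were called and 2, Polr1e and Imp4, were not. The mean over the 44 members was 10.24, 9.79, 10.17 and 10.35 in IL1B arrays 1 to 4, against 9.30, 9.05, 9.42 and 9.66 in PBS arrays 1 to 4. The arrays of the groups did not overlap in this mean, with IL1B 2 the lowest of its group and PBS 4 the highest of its own. The number of members that rose lay between 16, without IL1B 1 or PBS 1, and 25, without IL1B 2 or PBS 4. In the fits without 1 array, 4.88% to 6.31% of all genes rose.

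**Figure D1:**
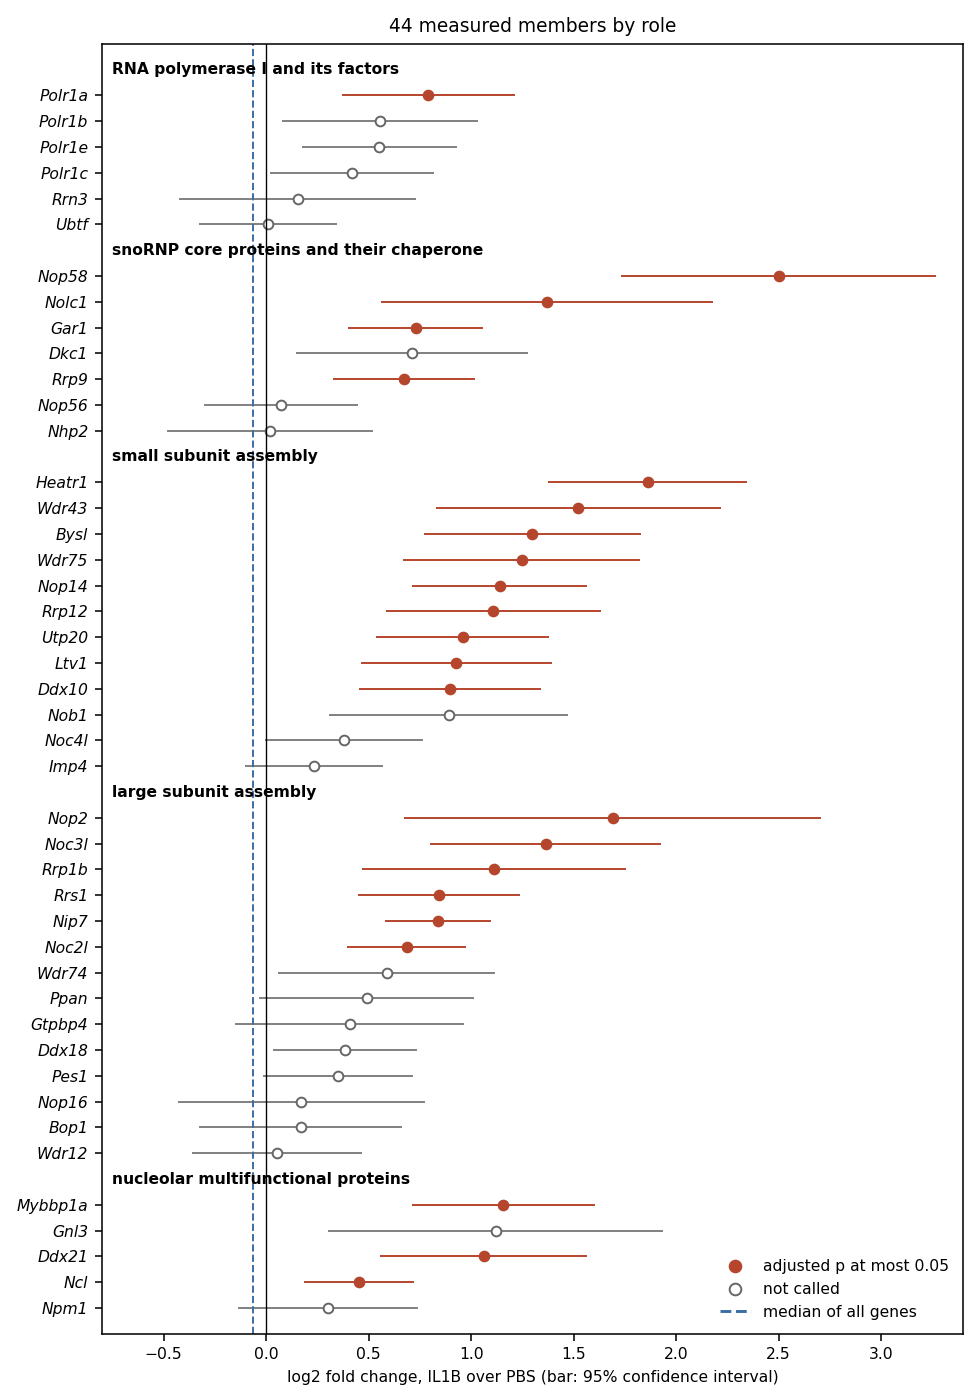
Log2 fold change of IL1B over PBS livers (x axis) for each of the 44 measured members (y axis), grouped by role, with 95% confidence intervals as bars, filled points for members with an adjusted p of 0.05 or less, and a dashed line at the median of all genes. All points lie right of 0, Polr1e at background included (5 of them do not with quantile normalization), small subunit assembly holds 9 filled points of 12, and RNA polymerase I with its factors holds 1 of 6.

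By role, the counts of members that rose stand beside 7.19% of all genes and 15.1% of the genes above background in a group. Among small subunit assembly factors, 9 of 12 measured members rose (75%), with a median log2 fold change of 1.03. Among snoRNP proteins 4 of 7 rose (57.1%, median 0.71), and among nucleolar proteins with several roles 3 of 5 (60%, median 1.06). For large subunit assembly factors it was 6 of 14 (42.9%, median 0.54). RNA polymerase I and its factors had 1 of 6 (16.7%, median 0.49, with Polr1e at background included), a share near that of genes above background. These counts are small and were not compared by a test, so no difference between roles is read from them.

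Among the small subunit assembly factors, Heatr1, Wdr43 and Wdr75 belong to the UTP-A complex, which binds the ribosomal RNA precursor while it is still being transcribed. All 3 of these members rose. Utp4, Utp15 and Nol11 of the same complex were not members and are counted below among the further small subunit factors. Heatr1 had 11.19, 10.43, 10.71 and 10.67 in IL1B arrays 1 to 4, against 8.79, 8.54, 8.87 and 9.35 in PBS arrays 1 to 4. The groups were well apart, with a fold change of 1.86 ± 0.21 (SE, adjusted p = 0.000707). Wdr43 had 13.12, 12.10, 13.10 and 13.26 in IL1B arrays 1 to 4, against 11.10, 10.97, 11.35 and 12.06 in PBS arrays 1 to 4. IL1B 2 was the lowest of the IL1B arrays and only just above PBS 4, and the fold change was 1.52 ± 0.31 (SE, adjusted p = 0.0121). Wdr75 had 11.63, 10.99, 11.39 and 11.66 in IL1B arrays 1 to 4, against 10.12, 9.64, 10.10 and 10.83 in PBS arrays 1 to 4. Here too IL1B 2 and PBS 4 came closest to each other, and the fold change was 1.25 ± 0.26 (SE, adjusted p = 0.0129).

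The yeast homologues of Nop14 and Noc4l bind each other and take part in the processing complex of the small subunit. Nop14 had 9.48, 9.37, 9.40 and 9.77 in IL1B arrays 1 to 4, against 8.10, 8.08, 8.49 and 8.79 in PBS arrays 1 to 4. All IL1B arrays were above all PBS arrays, and the means differed by 1.14 ± 0.19 (SE, adjusted p = 0.00447). For Noc4l the values were 7.96, 7.49, 7.59 and 7.95 in IL1B arrays 1 to 4, against 7.50, 7.03, 7.47 and 7.46 in PBS arrays 1 to 4. These overlapped, since IL1B 2 lay below PBS 1, and the difference of 0.38 ± 0.17 (SE, adjusted p = 0.187) did not pass the test. Utp20, another large component of the processing complex, had 10.28, 9.59, 9.85 and 10.12 in IL1B arrays 1 to 4, against 9.20, 8.69, 9.10 and 9.02 in PBS arrays 1 to 4. The groups were apart, and Utp20 rose by 0.96 ± 0.19 (SE, adjusted p = 0.00973).

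Bystin (Bysl) and Ltv1 act later, on the small subunit precursor that is to be exported. Bysl had 8.28, 7.90, 8.60 and 8.37 in IL1B arrays 1 to 4, against 6.88, 6.43, 7.27 and 7.38 in PBS arrays 1 to 4. PBS 1 and PBS 2 were not above their background level, the IL1B arrays were all above it, and the fold change was 1.30 ± 0.23 (SE, adjusted p = 0.00704). Ltv1 had 11.68, 11.15, 11.78 and 11.98 in IL1B arrays 1 to 4, against 10.37, 10.73, 10.77 and 11.00 in PBS arrays 1 to 4. The groups did not overlap and the fold change was 0.93 ± 0.21 (SE, adjusted p = 0.0178), a call that was lost without IL1B 1 (adjusted p just over 0.05) or PBS 1 (adjusted p = 0.0532). Rrp12, which is needed for export of the subunits in yeast, had 8.25, 7.24, 8.19 and 8.11 in IL1B arrays 1 to 4, against 6.87, 6.73, 6.65 and 7.11 in PBS arrays 1 to 4. Of its PBS arrays 3 were not above background, IL1B 2 was far below the other IL1B arrays but above all PBS arrays, and Rrp12 rose by 1.11 ± 0.23 (SE, adjusted p = 0.014).

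The RNA helicase Ddx10 had 9.93, 9.24, 9.92 and 9.73 in IL1B arrays 1 to 4, against 8.84, 8.55, 8.70 and 9.13 in PBS arrays 1 to 4. Its groups did not overlap, and it rose by 0.90 ± 0.19 (SE, adjusted p = 0.0163), a call lost without IL1B 1 (adjusted p = 0.051). Nob1, the endonuclease that makes the last cut in the RNA of the small subunit, had 10.38, 9.65, 10.19 and 10.44 in IL1B arrays 1 to 4, against 9.30, 8.65, 9.37 and 9.77 in PBS arrays 1 to 4. IL1B 2 lay below PBS 4, and with a fold change of 0.89 ± 0.26 (SE, adjusted p = 0.0519) Nob1 stayed just outside the threshold, and was called without IL1B 2 or PBS 4 (adjusted p = 0.0292 to 0.0363). Imp4, which binds the snoRNP for the early cuts of the precursor, had a fold change of 0.23 ± 0.15 (SE, adjusted p = 0.355). Its PBS arrays spanned only 10.27 to 10.35 and its IL1B arrays 10.36 to 10.91, so the groups touched without overlapping.

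**Figure D2:**
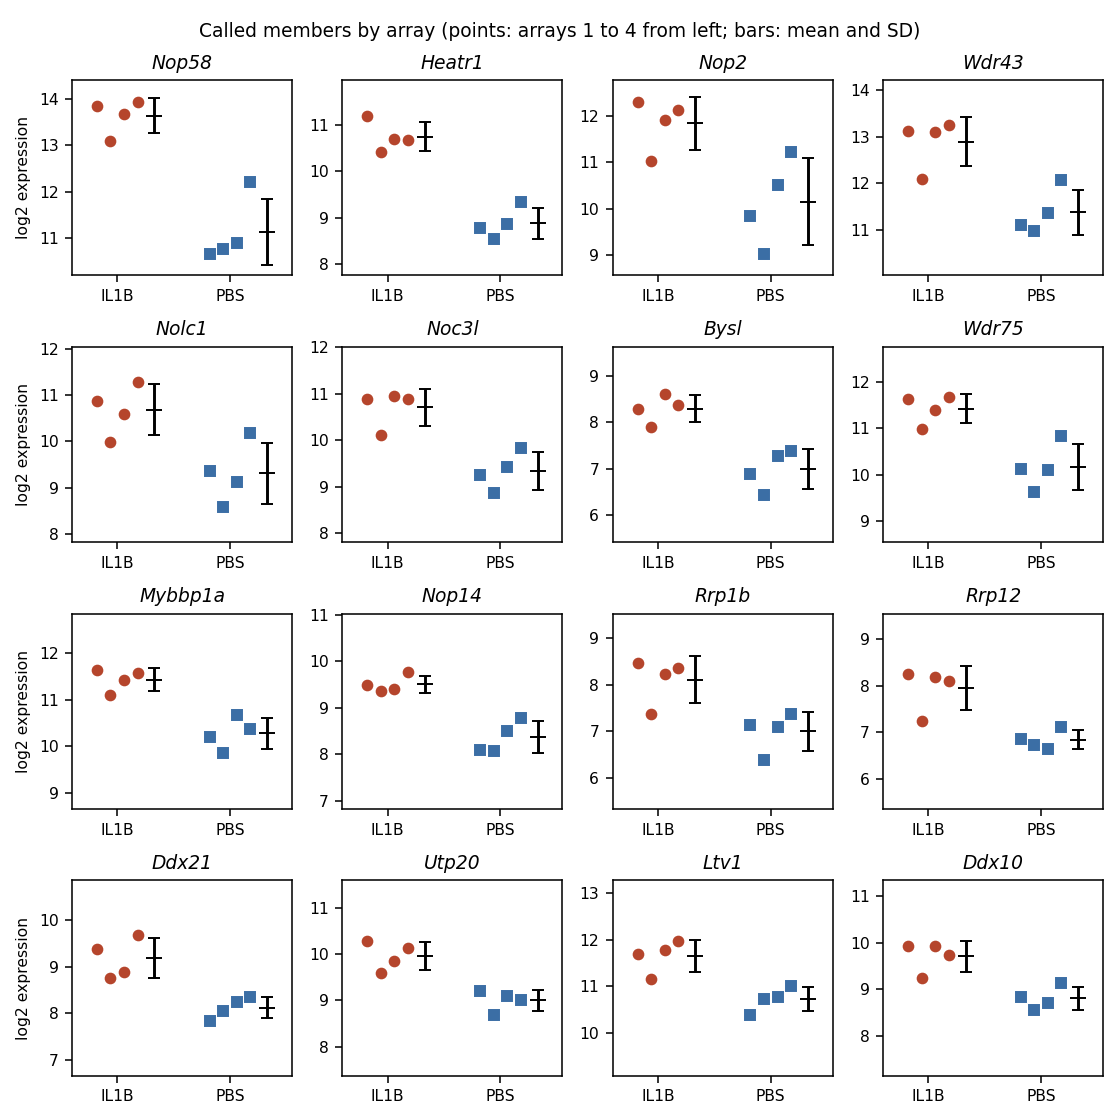
Log2 expression (y axis) of the 16 called members with the highest fold changes in each IL1B array (circles) and PBS array (squares), with the mean and SD of each group as bars. Every panel spans the same number of log2 units. IL1B 2, the second circle, is the lowest IL1B array in all 16 panels, and the groups overlap in Nop2, Nolc1 and Rrp1b.

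Of the snoRNP proteins, Nop58 is a core protein of the box C/D snoRNPs, which guide ribose methylation of ribosomal RNA. It had 13.84, 13.09, 13.68 and 13.93 in IL1B arrays 1 to 4, against 10.67, 10.77, 10.89 and 12.20 in PBS arrays 1 to 4. All IL1B arrays lay above all PBS arrays, although PBS 4 was more than 1 log2 unit above the other PBS arrays. With 2.50 ± 0.34 (SE, adjusted p = 0.00168), a 5.66-fold difference, Nop58 was the member with the highest fold change and ranked 146th of 22180 genes.

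Nop56, the partner of Nop58 in the same particle, did not pass the test. Averaged over its 3 features it had 9.91, 9.72, 10.11 and 10.39 in IL1B arrays 1 to 4, against 9.84, 9.90, 9.95 and 10.14 in PBS arrays 1 to 4. The groups overlapped, and the fold change of 0.07 ± 0.17 (SE, adjusted p = 0.831) averaged features that differed. One feature had 11.60, 10.62, 11.58 and 11.83 in IL1B arrays 1 to 4, against 10.10, 9.71, 10.24 and 11.16 in PBS arrays 1 to 4, a difference of 1.11. The other 2 features differed by -0.19 and -0.70. One more feature named both Nop56 and the small nucleolar RNA Snord57 and was not used. The sources used here do not give which feature reads the protein-coding transcript, so its positive average is not read as a direction.

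Nolc1, a chaperone that carries snoRNPs to the nucleolus, had 10.86, 9.98, 10.59 and 11.29 in IL1B arrays 1 to 4, against 9.36, 8.58, 9.13 and 10.18 in PBS arrays 1 to 4. IL1B 2 lay below PBS 4, so the groups overlapped. The fold change was 1.37 ± 0.36 (SE, adjusted p = 0.0358), and the call was lost without IL1B 1, IL1B 3, IL1B 4, PBS 1, PBS 2 or PBS 3 (adjusted p = 0.0684 to 0.0913). Rrp9, a protein of the snoRNP for the early precursor cuts, rose by 0.67 ± 0.15 (SE, adjusted p = 0.0189), with 2 PBS arrays not above background, and lost the call without IL1B 1 or PBS 1 (adjusted p = 0.0515 to 0.0581).

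Gar1, Dkc1 and Nhp2 are core proteins of the box H/ACA snoRNPs, in which dyskerin (Dkc1) turns uridine into pseudouridine. Gar1 had 7.42, 7.23, 7.69 and 7.56 in IL1B arrays 1 to 4, against 6.84, 6.75, 6.84 and 6.55 in PBS arrays 1 to 4. The groups were apart with 2 PBS arrays not above background, and Gar1 rose by 0.73 ± 0.14 (SE, adjusted p = 0.0107). Dkc1 had 10.79, 10.08, 10.75 and 10.95 in IL1B arrays 1 to 4, against 9.70, 9.60, 9.89 and 10.54 in PBS arrays 1 to 4. IL1B 2 lay below PBS 4, and the fold change was 0.71 ± 0.25 (SE, adjusted p = 0.0999). Dkc1 was called without IL1B 2 or PBS 4 (adjusted p = 0.0368 to 0.0409). Nhp2 had 8.93, 8.09, 8.65 and 8.64 in IL1B arrays 1 to 4, against 8.82, 8.15, 8.84 and 8.43 in PBS arrays 1 to 4. The groups fully overlapped, with a fold change of 0.02 ± 0.22 (95% confidence interval -0.48 to 0.52). The differences between the subunits of a particle were not tested.

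Nop2, an assembly factor of the large subunit and a methyltransferase of its RNA, had 12.30, 11.02, 11.92 and 12.13 in IL1B arrays 1 to 4, against 9.85, 9.02, 10.51 and 11.22 in PBS arrays 1 to 4. The PBS arrays spread over more than 2 log2 units, and IL1B 2 lay below PBS 4. The fold change was 1.69 ± 0.45 (SE, adjusted p = 0.0383), and the call was lost without IL1B 1, IL1B 3, IL1B 4, PBS 1, PBS 2 or PBS 3 (adjusted p = 0.0627 to 0.102). Noc3l, an assembly factor that in yeast pairs with the homologue of Noc2l, had 10.88, 10.12, 10.94 and 10.88 in IL1B arrays 1 to 4, against 9.24, 8.87, 9.42 and 9.84 in PBS arrays 1 to 4. The groups did not overlap, and Noc3l rose by 1.36 ± 0.25 (SE, adjusted p = 0.00749). Noc2l itself averaged 11.01 ± 0.11 in IL1B livers and 10.32 ± 0.13 in PBS livers (SD, n = 4 each), and rose by 0.69 ± 0.13 (SE, adjusted p = 0.00809).

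Rrp1b, a nucleolar protein of the precursors of the large subunit, had 8.47, 7.36, 8.23 and 8.37 in IL1B arrays 1 to 4, against 7.13, 6.39, 7.09 and 7.37 in PBS arrays 1 to 4. IL1B 2 lay just below PBS 4, and 1 PBS array was not above background. Its fold change was 1.11 ± 0.28 (SE, adjusted p = 0.0321), and the call was lost without IL1B 1, IL1B 3, IL1B 4, PBS 1, PBS 2 or PBS 3 (adjusted p = 0.0657 to 0.0896). Nip7, needed for the processing of the precursor, was the most even of the called members between mice, with 9.73 ± 0.04 in IL1B livers and 8.89 ± 0.08 in PBS livers (SD, n = 4 each). It rose by 0.84 ± 0.11 (SE, adjusted p = 0.00161) and was picked out for this evenness after its values were seen. Rrs1 rose by 0.84 ± 0.17 (SE, adjusted p = 0.0133), with 2 PBS arrays not above background. Its 2 features differed by 1.24 and 0.45, and with the brighter feature alone, the one of 0.45, the call was lost (adjusted p = 0.109).

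Pes1, Bop1 and Wdr12 form the PeBoW complex, which is needed to mature the large subunit, and none of the 3 passed the test. Pes1 had 11.63, 11.03, 11.43 and 11.43 in IL1B arrays 1 to 4, against 11.26, 10.91, 11.05 and 10.90 in PBS arrays 1 to 4. Only IL1B 2 was below a PBS array, PBS 1 and PBS 3 being above it, and the fold change was 0.35 ± 0.16 (SE, adjusted p = 0.199), with a 95% confidence interval of -0.01 to 0.71. For Bop1 the fold change was 0.17 ± 0.22 (95% confidence interval -0.32 to 0.66) and for Wdr12 0.05 ± 0.18 (95% confidence interval -0.36 to 0.46), with groups that overlapped.

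The remaining large subunit factors that did not pass were Wdr74 (0.59 ± 0.23, SE), Ppan (0.49 ± 0.23), the GTPase Gtpbp4 (0.41 ± 0.25), the helicase Ddx18 (0.39 ± 0.15) and Nop16 (0.17 ± 0.27). Their groups overlapped in all 5. The features of Ddx18 went apart, the brighter one with a difference of 0.89 and the dimmer one, near background, with -0.12. With the brighter feature alone, Ddx18 was called (adjusted p = 0.0351). Those of Ppan differed by 0.68 and 0.30.

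**Figure D3:**
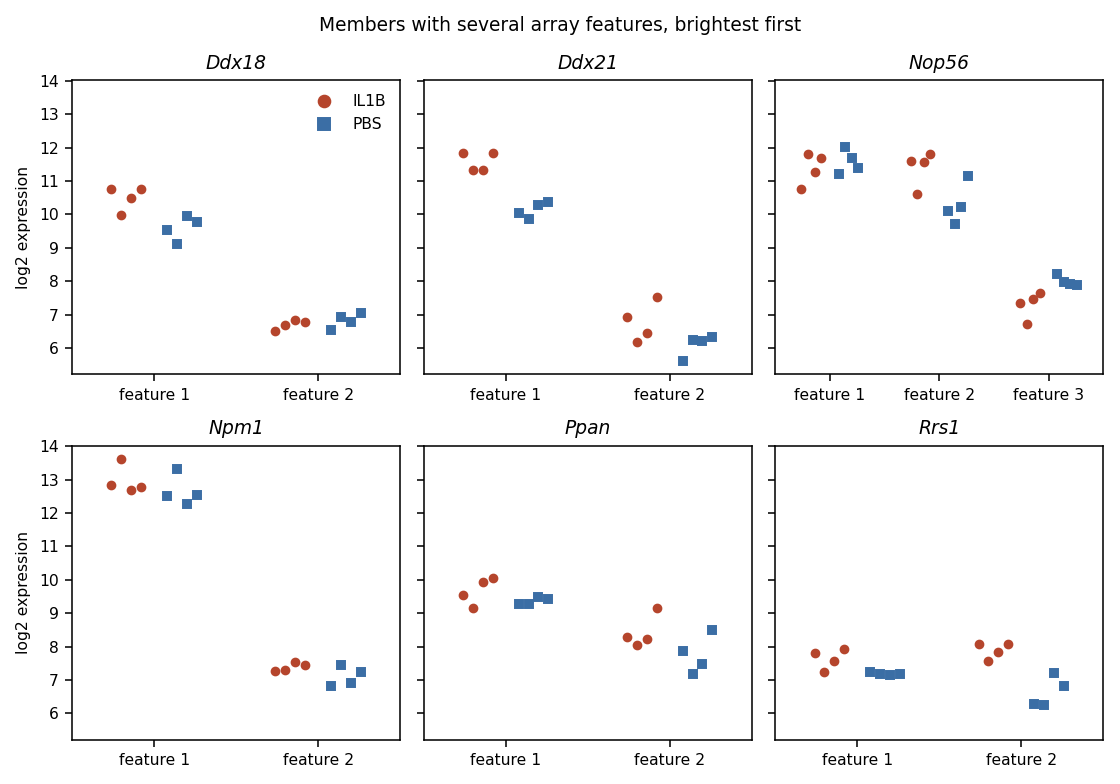
Log2 expression (y axis) of the array features (x axis, brightest first) of the 6 members that have several, in each IL1B array (circles) and PBS array (squares). In Nop56 feature 2 is higher in the IL1B livers by 1.11 and feature 3 lower by 0.70 on the log2 scale, and in Ddx18 and Ddx21 the brighter feature has the larger difference.

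Polr1a, the largest subunit of RNA polymerase I, averaged 9.46 ± 0.21 in IL1B livers and 8.67 ± 0.32 in PBS livers (SD, n = 4 each). It rose by 0.79 ± 0.19 (SE, adjusted p = 0.0231), with groups that did not overlap, and lost the call without IL1B 3, IL1B 4 or PBS 1 (adjusted p = 0.056 to 0.069). The second largest subunit, Polr1b, had 8.28, 7.65, 8.16 and 8.46 in IL1B arrays 1 to 4, against 7.76, 7.17, 7.56 and 7.83 in PBS arrays 1 to 4. IL1B 2 lay below PBS 1 and PBS 4, and the fold change of 0.56 ± 0.21 (SE, adjusted p = 0.126) did not pass. Polr1b was called without IL1B 2 (adjusted p = 0.0467). Polr1c, which RNA polymerase III uses as well, had 10.17, 10.22, 9.70 and 10.21 in IL1B arrays 1 to 4, against 9.48, 9.43, 9.94 and 9.78 in PBS arrays 1 to 4. Here IL1B 3 was the low array, below PBS 3 and PBS 4, and the fold change was 0.42 ± 0.18 (SE, adjusted p = 0.163).

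Polr1e was at background in all 8 arrays, so its fitted difference, which enters the counts and medians, is not read as a change, although every IL1B array read above every PBS array. The initiation factor Rrn3, which recruits the polymerase to its promoter, had 10.90, 10.49, 11.04 and 11.36 in IL1B arrays 1 to 4, against 10.56, 10.51, 10.63 and 11.47 in PBS arrays 1 to 4. PBS 4 was the highest of all 8 arrays, and the fold change was 0.15 ± 0.25 (95% confidence interval -0.42 to 0.73). Ubtf, the factor that keeps ribosomal RNA genes open, had 11.25, 11.68, 11.33 and 11.46 in IL1B arrays 1 to 4, against 11.44, 11.22, 11.63 and 11.38 in PBS arrays 1 to 4. The groups coincided, with a fold change of 0.01 ± 0.15 (95% confidence interval -0.32 to 0.34), which leaves out changes as large as that of Polr1a.

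Among the nucleolar proteins with several roles, Mybbp1a, a nucleolar partner of transcription factors and of RNA polymerase I, had 11.64, 11.10, 11.41 and 11.57 in IL1B arrays 1 to 4, against 10.20, 9.86, 10.67 and 10.36 in PBS arrays 1 to 4. The groups did not overlap, and it rose by 1.16 ± 0.20 (SE, adjusted p = 0.00529). The helicase Ddx21 had 9.39, 8.75, 8.89 and 9.68 in IL1B arrays 1 to 4, against 7.83, 8.05, 8.24 and 8.35 in PBS arrays 1 to 4. All IL1B arrays were above all PBS arrays, and the means differed by 1.06 ± 0.22 (SE, adjusted p = 0.0141). Its bright feature differed by 1.46 and its dim one, near background, by 0.66. Nucleostemin (Gnl3), a GTP-binding protein, had 13.48, 12.91, 13.68 and 13.99 in IL1B arrays 1 to 4, against 12.11, 11.73, 12.31 and 13.45 in PBS arrays 1 to 4. PBS 4 lay above IL1B 2, and the fold change of 1.12 ± 0.36 (SE, adjusted p = 0.0766) did not pass, while Gnl3 was called without PBS 4 (adjusted p = 0.0119).

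Nucleolin (Ncl) and nucleophosmin (Npm1) are the most abundant of these proteins in many cells. Ncl averaged 13.75 ± 0.09 in IL1B livers and 13.29 ± 0.07 in PBS livers (SD, n = 4 each). It was the called member with the lowest fold change, 0.45 ± 0.12 (SE, adjusted p = 0.0347), with all IL1B arrays above all PBS arrays. Ncl lost the call without IL1B 1, IL1B 2, IL1B 3, PBS 1, PBS 3 or PBS 4 (adjusted p = 0.0716 to 0.091). Of 7 alternative settings that kept all arrays and the same threshold, it was called in 5. Npm1 had 10.06, 10.46, 10.12 and 10.12 in IL1B arrays 1 to 4, against 9.66, 10.39, 9.59 and 9.90 in PBS arrays 1 to 4. The groups overlapped because PBS 2 was high, and the fold change was 0.30 ± 0.19 (SE, adjusted p = 0.361). Npm1 has many near-identical processed copies in the genome, so its value is uncertain.

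**Figure D4:**
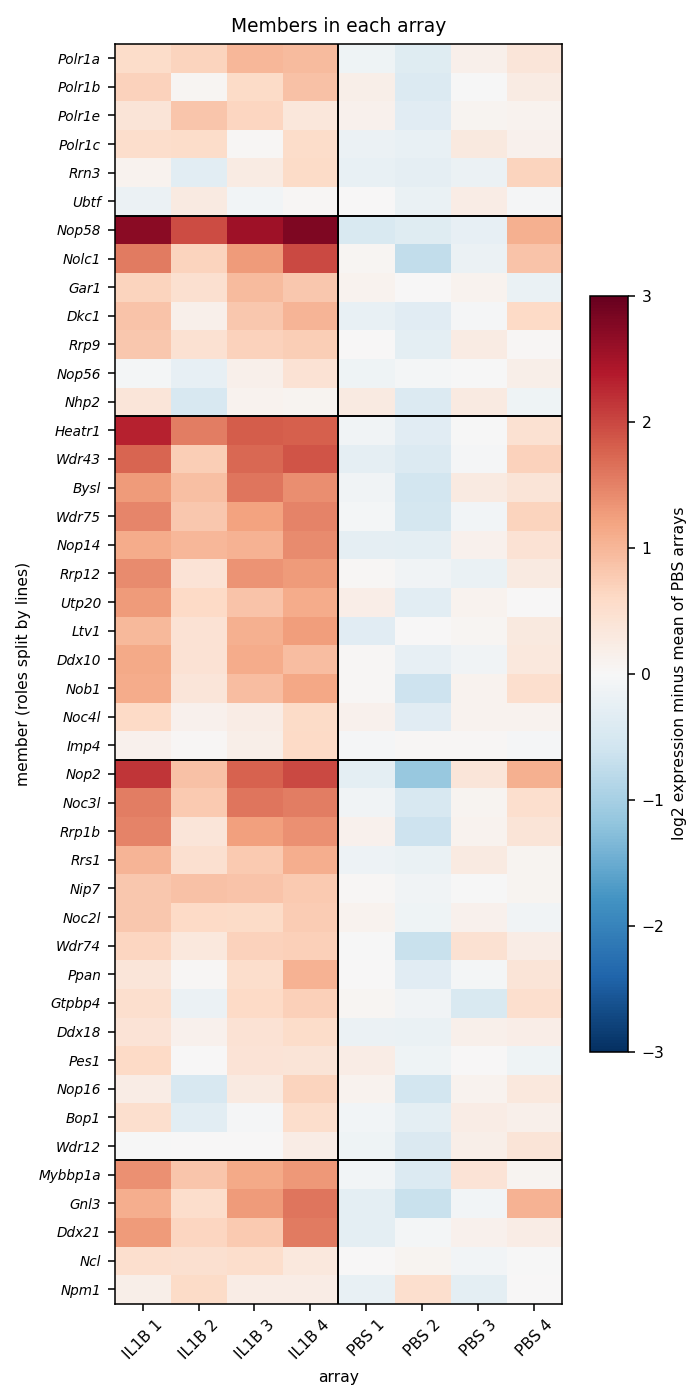
Log2 expression of each measured member (rows, grouped by role in the order RNA polymerase I, snoRNP, small subunit, large subunit, several roles) in each array (columns) relative to the mean of its PBS arrays, in red where higher and blue where lower. The IL1B columns are redder than the PBS columns, with IL1B 2 the palest of them, and PBS 4 is redder than PBS 2.

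The arrays of a group kept much the same order over the members. IL1B 2 was the lowest IL1B array in 35 of 44 members, against 37.7% of the genes above background, and IL1B 4 the highest in 22, against 31.2%. PBS 2 was the lowest PBS array in 33 members, against 40.6% of those genes, and PBS 4 the highest in 27, against 23.3%. Members measured in the same liver are not independent points.

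Markers of other cells also differed between the livers. All 9 neutrophil markers rose, with a mean level of 10.89, 11.07, 7.70 and 7.55 in IL1B arrays 1 to 4, against 4.91, 5.37, 5.11 and 4.77 in PBS arrays 1 to 4. S100a8, S100a9, Retnlg, Ly6g, Mmp8 and Cxcr2 among them were at background in all PBS arrays. Of the proliferation markers 0 of 8 were called, with mean levels of 7.75, 8.04, 5.93 and 5.92 in IL1B arrays 1 to 4, against 5.85 to 6.01 in the PBS arrays. Of the Kupffer cell markers 0 of 8 were called, with 13.24, 12.52, 10.46 and 9.83 in IL1B arrays 1 to 4, against 9.77 to 11.01 in the PBS arrays. Within the IL1B group, IL1B 1 and IL1B 2 were high for these markers. The members' mean was 10.24, 9.79, 10.17 and 10.35 in IL1B arrays 1 to 4.

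Sinusoidal endothelial and stellate cell markers also set the groups apart, with lower mean levels in the IL1B livers. Of 8 sinusoidal endothelial cell markers 4 fell, Kdr (-2.47 ± 0.21, SE), Tek (-1.25 ± 0.17), Clec4g (-0.74 ± 0.15) and Oit3 (-0.65 ± 0.13), and 1, Lyve1, rose (3.18 ± 0.63). Their mean level was 10.90, 10.97, 10.90 and 10.79 in IL1B arrays 1 to 4, against 11.01, 11.39, 11.25 and 11.03 in PBS arrays 1 to 4, so that all IL1B arrays lay below all PBS arrays. Of 8 stellate cell markers 1 fell, Lrat (-0.88 ± 0.18), and the mean level was 8.88 to 9.25 in the IL1B arrays and 9.29 to 9.36 in the PBS arrays. The means of cholangiocyte markers (1 of 4 higher) and of T and B cell markers (2 of 6 lower, all 6 at background in both groups) overlapped between the groups.

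With IL1B 1 and IL1B 2 left out, an alternative chosen after seeing the data, 18 members rose, the members' median was 0.85, and 4.64% of all genes rose. With IL1B 3 and IL1B 4 left out instead, 9 members rose, the median was 0.62, and 7.34% of all genes rose. The part of other cell types in the members' values, endothelial and stellate cells included, was not tested. These fits are no test of it. IL1B 3 and IL1B 4 also had neutrophil marker means (7.70 and 7.55) above those of the PBS arrays (4.77 to 5.37).

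Other genes of the pathway were read from lists of further assembly factors that share no gene with the members. Their shares stand beside 7.19% of all genes that rose and 5.32% that fell. Among the 10020 genes above background in a group, 15.1% rose and 9.45% fell. Of 44 further small subunit factors 11 rose (25.0%) and 0 fell (median log2 fold change 0.36). Ngdn rose by 1.50 ± 0.16 (SE, adjusted p = 0.00055), and Nol10 by 1.40 ± 0.21 (SE, adjusted p = 0.00274). Of 44 genes listed as further large subunit factors 12 rose (27.3%) and 0 fell (median 0.30). That list also holds Nop10, a protein of the box H/ACA snoRNPs. Nol8 rose by 1.95 ± 0.29 (SE, adjusted p = 0.00281), and Eif6, which keeps new large subunits from joining small ones too early, by 1.94 ± 0.19 (SE, adjusted p = 0.000274). Of 13 other RNA polymerase I subunits and factors 1 rose, the DNA topoisomerase Top1, by 1.08 ± 0.19 (SE, adjusted p = 0.006), and 0 fell. This share (7.69%) is close to that of all genes.

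Of 12 measured parts of the RNA exosome, the nuclease complex that trims the precursor, 3 rose (25.0%) and 0 fell, among them Exosc1 (1.00 ± 0.18, SE) and Exosc10 (0.94 ± 0.13). Of 12 host genes of small nucleolar RNAs, 5 rose (41.7%) and 0 fell, with Snhg3 (1.71 ± 0.30) and Snhg1 (1.03 ± 0.18) the highest. RNA polymerase III, which makes transfer RNAs and the smallest ribosomal RNA, had 1 of 19 genes higher, Polr3d (1.26 ± 0.20), and 1 lower, Polr3gl (-0.69 ± 0.13), shares (5.26% each) near those of all genes.

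The protein components of the ribosome showed few changes of their own. Of 61 measured cytosolic ribosomal protein genes, 2 rose (3.28%), 1 fell (1.64%) and the median was 0.05. Rpl38 fell, with -0.72 ± 0.15 (SE, adjusted p = 0.0141), and Rpl37 rose by 0.72 ± 0.18 (SE, adjusted p = 0.0288), a call lost without IL1B 1, IL1B 3, IL1B 4, PBS 1 or PBS 3 (adjusted p = 0.0508 to 0.076). At background in both groups were 14 of the 61, among them the other call, Rpl30, for which no fold change is given. Many of these genes have near-identical processed copies, which makes their array values uncertain. Among 30 translation initiation factors 4 rose (13.3%, against 15.1% of genes above background) and 0 fell. Highest of the 4 were Eif1a (3.23 ± 0.27, SE), a gene with a close copy, Eif1ax, and Eif3a (0.93 ± 0.19).

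**Figure D5:**
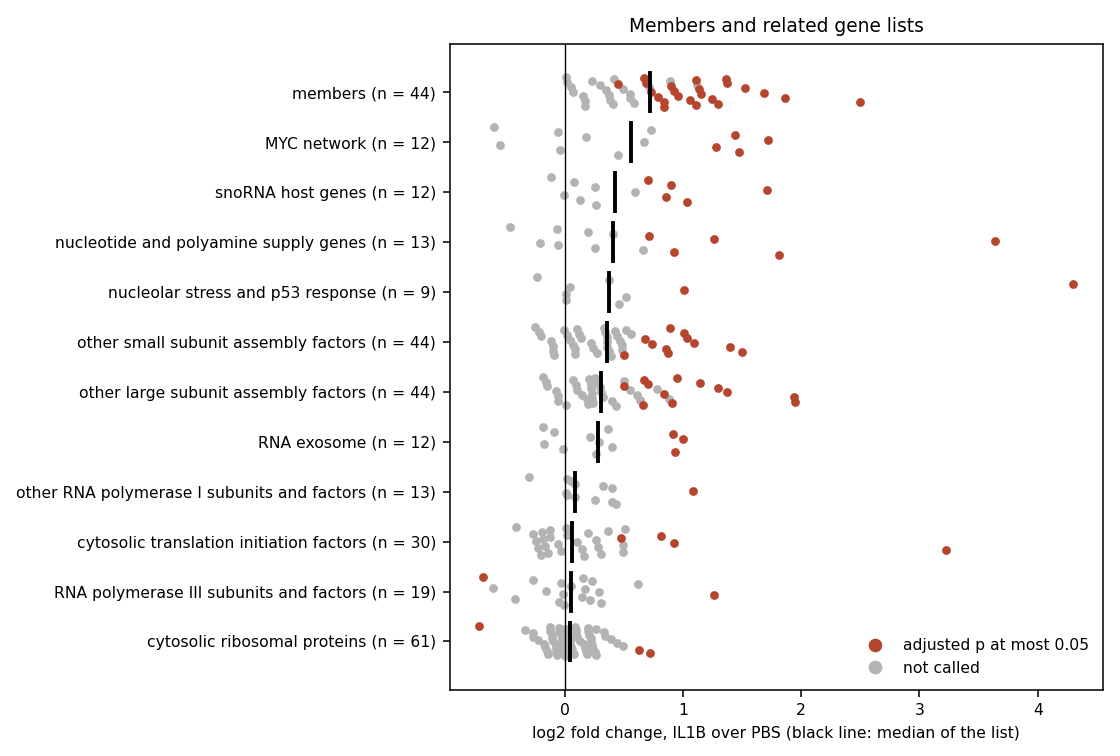
Log2 fold change of IL1B over PBS livers (x axis) for the genes of the members' list and of 11 related lists (y axis, with the number measured), red where the adjusted p was 0.05 or less, with the median of each list as a black line. The members' median is 0.72, and that of the ribosomal protein genes 0.05.

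Myc itself did not pass the test. It had 8.33, 8.43, 8.33 and 8.39 in IL1B arrays 1 to 4, against 7.89, 8.91, 7.25 and 6.52 in PBS arrays 1 to 4. The IL1B arrays were close together, PBS 4 was not above background, PBS 2 lay above all of them, and the fold change was 0.73 ± 0.42 (SE, adjusted p = 0.305). Without PBS 2, Myc was called with a fold change of 1.15 (adjusted p = 0.0373). Of 12 genes of the MYC network 4 rose (33.3%) and 0 fell, with Mlxip (1.72 ± 0.15, SE) and the MYC partner Max (1.47 ± 0.26) the highest. Of 13 genes that supply nucleotides and polyamines and are known to be bound by MYC, 5 rose (38.5%) and 0 fell. By comparison, 7.19% of all genes and 15.1% of genes above background in a group rose. The spermidine synthase Srm rose by 1.81 ± 0.20 (SE, adjusted p = 0.000616), and the mitochondrial folate enzyme Mthfd2, which was at background in the PBS livers, had 10.67, 8.77, 8.43 and 9.09 in IL1B arrays 1 to 4, against 5.33, 5.63, 5.77 and 5.67 in PBS arrays 1 to 4.

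Genes of the p53 response, which disturbed ribosome assembly is known to set off, were measured for 9 members of a list. Of these 2 rose (22.2%) and 0 fell, against 7.19% of all genes and 15.1% of genes above background that rose. The other 7 were not called, and 3 of the 9 were at background in both groups. The cell cycle inhibitor Cdkn1a had 14.85, 14.02, 14.38 and 14.58 in IL1B arrays 1 to 4, against 9.89, 10.34, 9.85 and 10.53 in PBS arrays 1 to 4. It rose by 4.30 ± 0.22 (SE, adjusted p = 8.56e-06). Mdm2, which marks the p53 protein for degradation, rose by 1.01 ± 0.20 (SE, adjusted p = 0.0123). Whether the changes of these genes are tied to ribosome assembly or to p53 was not tested.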

How the data were processed

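Liver RNA of 4 IL1B and 4 PBS mice was labelled and hybridized, 1 array per mouse. The deposited values are log2 expression values, for which the authors ran Affymetrix Power Tools through the GIANT toolbox in Galaxy. The options were scaled intensities, GC correction when available and RMA. RMA removes background and makes arrays more alike, so that a difference shared by all genes is partly lost. The deposited arrays were not fully equal, with an upper quartile of 8.20 to 8.28 in the IL1B arrays and 8.06 to 8.10 in the PBS arrays. A tool version is not given in the sources. No depth applies to arrays, and 4 arrays per group limit the precision.

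Of 41345 features, 23521 had exactly 1 symbol and were averaged per symbol to 22180 genes. Groups were taken from the sample titles. limma 3.58.1 (R 4.3.3, lmFit and eBayes) was fitted to the 8 arrays, and its only factor was the group. A gene was at background where no array of the group exceeded its brightest antigenomic probe set. The test was checked on simulated data. As alternatives, arrays were left out, weighted, quantile normalized or centred on their medians, dim genes were filtered out, only the brightest feature of a gene was used, the moderation was made robust with a trend, replicate numbers served as a block, and the adjusted p was set to 0.15.

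Values per array were given for up to 16 called members by fold change and for uncalled members of complexes described, and list genes were the 2 highest and 2 lowest called, with Myc. The values per array of Gar1, Nob1, Gnl3, Npm1, Rrn3, Ubtf, Cdkn1a and Mthfd2 were added after they were seen. Members and lists were chosen with earlier results of these data known. Promoter windows came from RefSeq (GRCm38.p6). Figures were drawn with matplotlib 3.10.9.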

Additional observations from a re-analysis of the deposited data

Results flagged for a closer look

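In each group of 4 arrays, the gap between the highest or lowest array and its neighbour was compared with the range of the group for each of the 44 measured members, and 10 of 88 groups exceeded the critical value of Dixon's test. Chance flags about 1 in 20 groups, and members of the same liver move together, so several of these are the same array seen again.

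IL1B 2 was the low array of its group in Wdr43 (12.10), Noc3l (10.12) and Rrp12 (7.24), and the high one in Npm1 (10.46). IL1B 3 was the low array in Polr1c (9.70), and IL1B 4 the high one in Wdr12 (9.0). In the PBS group, PBS 4 was the high array in Nop58 (12.20) and Rrn3 (11.47), and PBS 2 the low one in Polr1e (5.23), a gene at background, and in Noc4l (7.03). The calls of Wdr43, Noc3l, Rrp12 and Nop58 were kept in every fit that left out 1 array.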

How the results depend on the processing

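The number of members that rose was 23 in the fit as reported, 23 with quantile normalization and with the brightest feature per gene, 24 with array weights and with the robust, trended moderation, 25 with median centring and with the filter on dim genes (43 members tested), and 30 at an adjusted p of 0.15, at which 11.9% of all genes rose. It was 16 to 25 without 1 array, with 0 members lower throughout, and 15 of the 23 kept the call in each of those fits. The median log2 fold change was 0.62 to 0.77 under the settings and 0.66 to 0.82 without 1 array. Of all genes, 6.16% rose and 6.87% fell with quantile normalization, and 8.04% and 4.08% with median centring. With IL1B 3 and IL1B 4 left out, chosen after seeing the data, 9 members rose.

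The sign changed for members near 0. Values were -0.010 (Rrn3), -0.073 (Nop56), -0.086 (Wdr12), -0.13 (Nhp2) and -0.15 (Ubtf) with quantile normalization, -0.19 (Nop56) with the brightest feature and -0.029 (Ubtf) with array weights. With 1 array left out the lowest and highest values were -0.12 and 0.18 for Nhp2, -0.076 and 0.080 for Ubtf, -0.048 and 0.18 for Nop56, -0.090 and 0.18 for Wdr12 and -0.0091 and 0.39 for Nop16. Ubtf had -0.028 with IL1B 1 and IL1B 2 left out, and with IL1B 3 and IL1B 4 left out the values were -0.13 (Nop16), -0.10 (Rrn3), -0.15 (Nop56), -0.0066 (Wdr12) and -0.051 (Nhp2). The cause was not tested.

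The labels number the mice of both groups 1 to 4, and nothing in them pairs the mice. Deviations from the group means correlated by -0.07, 0.22, 0.05 and 0.12 between arrays of the same number. With the replicate block, 26 members rose, 0 fell, and 1468 genes rose and 1094 fell. Few arrays and values near background limit what the dim members can show, and values at the upper end of the scale cannot be ranked.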
